A study of Populus euphratica with 12 samples.

Results

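The phosphate-responsive miRNAs of Populus euphratica leaves were taken as every listed miRNA named ptc-miR399, ptc-miR827 or ptc-miR2111. These were 9 of the 257 listed miRNAs: ptc-miR399a, ptc-miR399b, ptc-miR399d, ptc-miR399e, ptc-miR399f, ptc-miR399h, ptc-miR399i, ptc-miR827 and ptc-miR2111a. P. euphratica is a desert poplar whose leaf shape changes as the tree matures. Small RNAs of young leaves had been sequenced in 3 replicates for each of 4 leaf types. Linear leaves (Li) came from trees aged 0 to 3 years and lanceolate leaves (La) from trees aged 4 to 6 years. Ovate leaves (Ov) came from trees of 8 to 12 years, and those of broad-ovate shape (Bo) from trees of more than 20 years, so leaf type and tree age cannot be told apart. All trees grew at one site and were sampled in the same month, no treatment or genotype distinguished the groups, and no phosphate level was given. The names are those of P. trichocarpa (ptc), given by alignment without mismatches, and the files gave a precursor position for 0 of the 9.

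In Arabidopsis, leaves short of phosphate make miR399, which moves through the phloem to the root. There it represses PHO2, an enzyme that marks phosphate transporters for removal. miR827 is induced by the same shortage and represses NLA, a ubiquitin ligase that acts on phosphate transporters, and in many other plants it targets vacuolar phosphate transporters with an SPX domain. miR2111 is likewise induced by phosphate shortage and, in legumes, travels from shoot to root to repress the F-box gene TML. These roles are background from other species; neither target transcripts nor phosphate were measured in these libraries.

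Values were RPM, the reads of a miRNA scaled to a fixed total of reads on listed miRNAs. In each library the lowest value above 0 was taken as 1 read, and all 257 values then came out as whole reads (within 0.001). On this scale the libraries held 199583 (Bo1) to 632114 reads (Ov1), and 1 read was worth 5.01 RPM in Bo1 and 1.58 RPM in Ov1. The most abundant miRNA, ptc-miR159a, took 30.8% to 40.0% of the reads, so that every other level was relative to a total set by few sequences. The 9 miRNAs together took from 0.118% of the reads (La2) to 0.572% (Li3). With miRNA values alone, no leaf marker transcript could be checked, and in whole leaves fewer cells making a miRNA and less of it per cell cannot be told apart.

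A few sequences carried nearly all of this signal. Over the 12 libraries ptc-miR827 had 6462 reads, ptc-miR399f 3200 and ptc-miR2111a 1121, and each was read in all 12. The next were ptc-miR399i with 67 reads and ptc-miR399e with 56. At the bottom, ptc-miR399d had 5 reads, ptc-miR399h 3, ptc-miR399b 2 and ptc-miR399a 1. Of the 9, 6 reached the mean of 1 RPM needed for testing, as did 216 of the 257 listed miRNAs; ptc-miR399a, ptc-miR399b and ptc-miR399h did not. No source used here says how a read matching several miR399 members was assigned, so the division of reads within this family is uncertain.

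ptc-miR399f was high in linear leaves, low in lanceolate and ovate leaves, and again higher in broad-ovate leaves. In the Li libraries its level was 902, 1080.3 and 1882 RPM. In the La libraries it was 232, 198 and 502 RPM, in the Ov libraries 574, 222 and 514 RPM, and in the Bo libraries 1117, 913 and 641 RPM. Every Li and every Bo library was above every La and every Ov library, while Li and Bo overlapped, as did La and Ov. Taken singly, La lay wholly below Li for 7.41% of tested miRNAs and Ov below Li for 12.5%. Bo lay wholly above La for 9.26% and above Ov for 11.6%. The share of miRNAs with all of these at once was not counted. Li leaves averaged 1288 ± 522 RPM, La leaves 311 ± 167, Ov leaves 437 ± 188 and Bo leaves 890.3 ± 239 (SD, n = 3 each). Per library, 53 (La2) to 781 (Li3) reads stood behind them. Over the 4 leaf types, 73.3% of the variation of log2(RPM + 1) lay between groups (exact permutation test of F over all splits into 4 groups of 3, one-sided, p = 0.0177). This p was the smallest among the 6 tested members and was not adjusted over them. An F test by limma over all tested miRNAs, chosen after seeing the data, called 0 of the 6 tested members and 5.09% of all tested miRNAs (adjusted p = 0.0571 for ptc-miR399f).

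**Figure D1:**
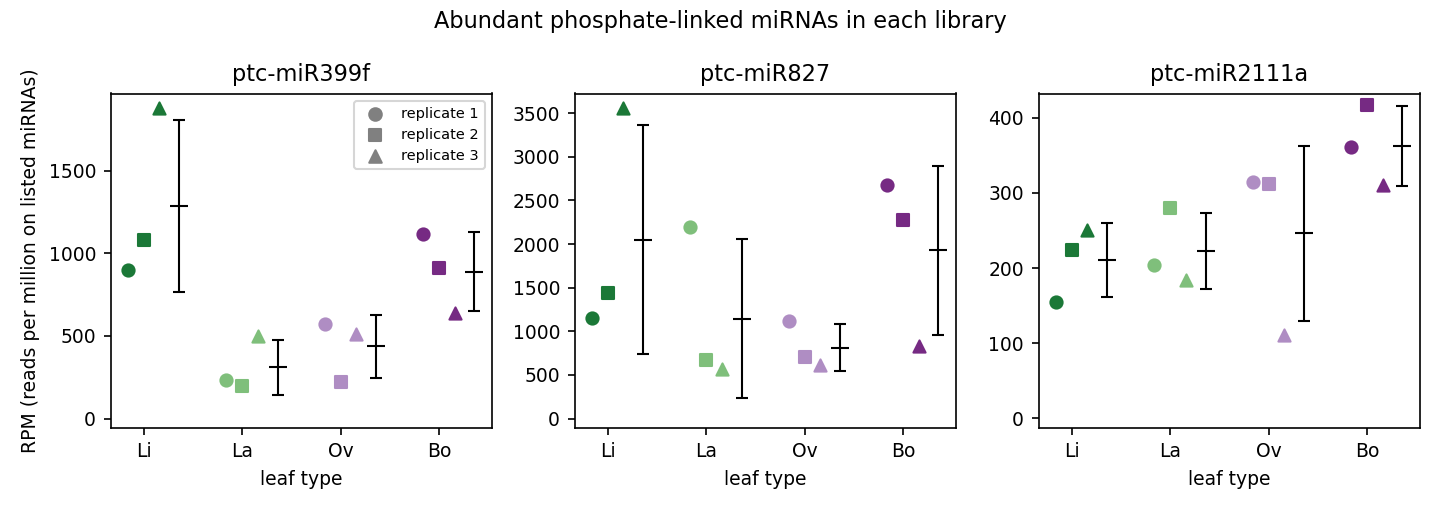
RPM of ptc-miR399f, ptc-miR827 and ptc-miR2111a (vertical axes, linear and including 0) in Li, La, Ov and Bo leaves (horizontal axes). Symbols are the 3 replicates, and the dash with bars is the group mean ± SD. For ptc-miR399f all Li and Bo libraries, at 641 RPM or more, sit above all La and Ov libraries, at 574 RPM or less.

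The 6 pairs of leaf types were compared with limma on log2(RPM + 1), with all 12 libraries in one fit and Benjamini-Hochberg adjustment over the 216 tested miRNAs. A miRNA was called at an adjusted p under 0.05. Of the 6 tested members, 1 was called in La/Li and 0 in each of the other 5 pairs. Of all tested miRNAs, 1.85% were called in La/Li, 4.17% in Ov/Li, 12.5% in Bo/Li, 0% in Ov/La, 3.7% in Bo/La and 2.78% in Bo/Ov. At an unadjusted P under 0.05 the members passing numbered 1 in La/Li (14.8% of all tested miRNAs), 1 in Ov/Li (23.1%) and 0 in Bo/Li (22.2%). They numbered 0 in Ov/La (1.85%), 2 in Bo/La (13%) and 2 in Bo/Ov (14.4%). The call was ptc-miR399f, which was at 311 ± 167 RPM in La and 1288 ± 522 in Li (SD, n = 3 each). Its log2 fold change La/Li was -2.10 (standard error 0.50, 0.233-fold, adjusted p = 0.0496), the fourth smallest P of this pair. This p lay at the threshold: with other settings or a library left out the adjusted p was between 0.0274 and 0.18. Without Li2, Li3, La1, La2, Ov1, Ov3, Bo1, Bo2 or Bo3 in turn it was no longer called (adjusted p from 0.0588 to 0.18), while the log2 fold change stayed between -2.51 and -1.79 with any 1 library left out.

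The other differences of ptc-miR399f did not pass the adjusted threshold when replicate numbers were ignored. In Ov against Li leaves, at 437 ± 188 and 1288 ± 522 RPM, the difference was -1.60 on the log2 scale (standard error 0.50, adjusted p = 0.0774), and no Ov library reached the lowest Li library. With the replicate number as a block, it was called (adjusted p = 0.0474), although the numbers pair Ov with La and not with Li. Such a lack of overlap with lower values was seen for 12.5% of the tested miRNAs in Ov/Li and for 7.41% in La/Li. In Bo against La leaves it was 1.61 with adjusted p = 0.114, and in Bo against Ov leaves 1.10 with adjusted p = 0.319 (standard error 0.50 in both). In both pairs all 3 Bo libraries were above the other leaf type, which 9.26% of tested miRNAs showed in Bo/La and 11.6% in Bo/Ov. Without La3 the Bo/La difference was called, with a log2 fold change of 2.01 (adjusted p = 0.0465). Between Bo and Li the log2 fold change was -0.50 (95% interval -1.57 to 0.57), and the samples overlapped. At an unadjusted P under 0.05, ptc-miR399f passed in 4 pairs (La/Li, Ov/Li, Bo/La and Bo/Ov), against 14.8%, 23.1%, 13% and 14.4% of the tested miRNAs in these pairs. The pairs share libraries, so these 4 results are not separate evidence.

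ptc-miR827 was the most abundant of the 9, ranking between 26th and 55th of the 257 miRNAs. Its level was 1151, 1443 and 3559 RPM in Li libraries and 2193, 675 and 565 RPM in La libraries. In Ov libraries it was 1122, 702 and 614 RPM, and in Bo libraries 2676, 2275 and 835 RPM. Means were in the order Li, Bo, La, Ov, at 2051 ± 1314, 1928.5 ± 968, 1145 ± 910.0 and 813 ± 271 RPM (SD, n = 3 each). One library in each of 3 groups stood away from its replicates (Li3 and La1 above, Bo3 below), and no 2 neighbours in this order were separated.

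All 3 Ov libraries lay below the 3 Li libraries for ptc-miR827 (12.5% of tested miRNAs did so). The log2 fold change Ov/Li was -1.20 (95% interval -2.50 to 0.09, adjusted p = 0.248 from limma). For Bo/Ov it was 1.13 (95% interval -0.17 to 2.43, adjusted p = 0.375), with Bo3 inside the Ov range. The Bo/Li difference was -0.07 (95% interval -1.37 to 1.22), and it was 0.42 without Li3 and 0.45 without Bo3. Over the 4 leaf types the exact permutation test gave p = 0.277 for this miRNA. None of its 6 pairs passed the test.

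ptc-miR2111a was the only abundant member with a higher mean at each step through Li, La, Ov and Bo. Its level was 155, 224 and 251 RPM in Li libraries, and 204, 279.8 and 184 RPM in La libraries. Ov libraries had 315, 313 and 112 RPM, and Bo libraries 361, 417 and 311 RPM. The means were 210.1 ± 49.2, 223 ± 50.4, 246 ± 117 and 363 ± 53.1 RPM (SD, n = 3 each), on 40 (Ov3) to 199 (Ov1) reads per library. Li, La and Ov overlapped throughout. The 3 Bo libraries were above all Li and La libraries, and Bo1 and Bo2 were above all Ov libraries, but Bo3 was just below Ov1 and Ov2.

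The log2 fold change of ptc-miR2111a for Bo/Li was 0.80 (95% interval -0.22 to 1.82, adjusted p = 0.370 from limma). For Bo/La it was 0.71 (95% interval -0.31 to 1.73, adjusted p = 0.479). Samples did not overlap with higher values for 19% of tested miRNAs in Bo/Li and for 9.26% in Bo/La, so such a separation was common in Bo/Li. The exact permutation test over the 4 leaf types gave p = 0.25. Without Ov3, the lowest of all 12 libraries for this miRNA, the exact test gave p = 0.0303. With any other library left out, its p was 0.191 to 0.53. The steps La/Li and Ov/La were 0.09 and 0.02 on the log2 scale, and each turned negative in at least 1 of the fits with a library left out.

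**Figure D2:**
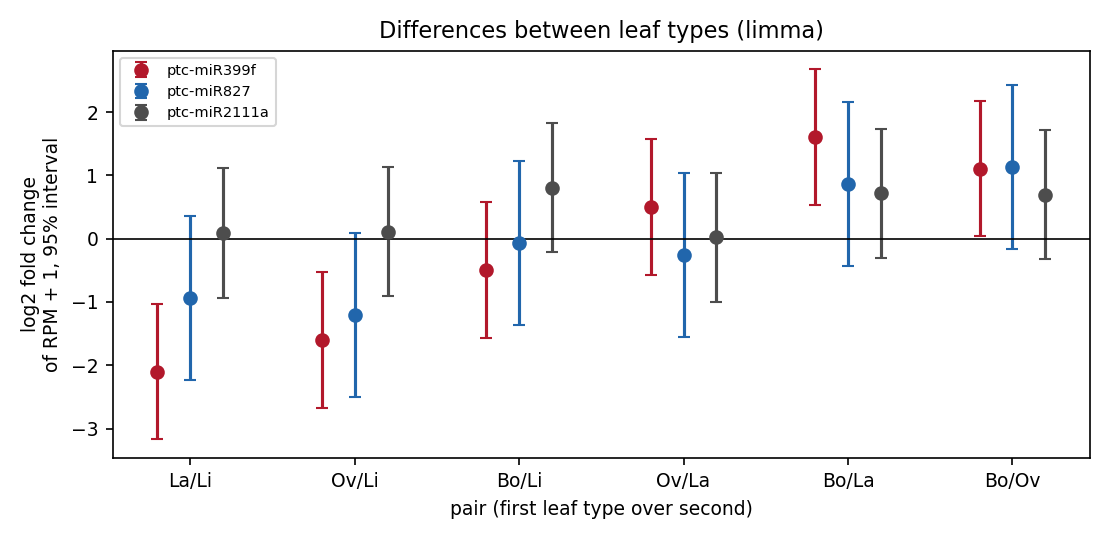
Log2 fold change of RPM + 1 (vertical axis; points, with 95% intervals from limma as bars) of ptc-miR399f, ptc-miR827 and ptc-miR2111a for the 6 pairs of leaf types (horizontal axis, first leaf type over second). For ptc-miR399f the intervals of La/Li, Ov/Li, Bo/La and Bo/Ov exclude 0 before adjustment, and all intervals of the other miRNAs include 0.

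The minor miR399 members were read far less often, and with all 12 libraries and replicate numbers ignored none was called. For ptc-miR399e, Li libraries had 3.38, 7.01 and 2.41 RPM, La libraries 0, 3.73 and 67.9 RPM, Ov libraries 6.33, 6.72 and 44.7 RPM, and Bo libraries 0, 0 and 0 RPM. In reads, La3 held 28 and Ov3 held 16, no other library held more than 4, and the 3 Bo libraries held none. Over the 834597 reads of the Bo libraries, 0 reads allow a level of up to 3.59 RPM (3 reads over the group, counting error only). This limit was 7.23-fold below the pooled La level of 26.0 RPM (95% counting interval 17.4 to 37.3 RPM). It was 4.75-fold below the pooled Ov level of 17.1 RPM (10.7 to 25.9 RPM). Both folds leave out the counting error of La and Ov and the spread between libraries, so they are not lower bounds. They turned on the libraries numbered 3. Without La3 the La libraries held 1 read, under the limit, and without Ov3 the fold for Ov was 1.80.

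The fitted log2 fold changes of ptc-miR399e depend on the pseudocount because Bo was at 0: with a pseudocount of 0.1 and of 10 they were -5.31 and -0.50 for Bo/Li, -4.89 and -1.14 for Bo/La, and -6.97 and -1.30 for Bo/Ov. For Bo/Ov it was -3.78 (standard error 1.26, adjusted p = 0.181 from limma), and all 3 Bo libraries were below the 3 Ov libraries, as for 8.33% of tested miRNAs. With any 1 library left out, the adjusted p of this pair was 0.0419 to 0.437. It was lowest without La3, which belongs to neither leaf type of the pair. For Bo/La the value was -2.78 (standard error 1.26, adjusted p = 0.375) and for Bo/Li -2.30 (standard error 1.26, adjusted p = 0.312). The Bo/La value was -1.12 without La3 and -4.17 without La1. Before adjustment ptc-miR399e passed 0.05 in Bo/La and Bo/Ov. The exact permutation test over the 4 leaf types gave p = 0.147 with all libraries, p = 0.00766 without La3 and p = 0.0323 without La1. With any other library left out, its p was 0.152 to 0.247.

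ptc-miR399i had a lower mean at each step through Li, La, Ov and Bo. Li libraries had 60.8, 7.01 and 21.7 RPM, La libraries 9.19, 18.7 and 19.4 RPM, Ov libraries 3.16, 13.4 and 22.3 RPM, and Bo libraries 5.01, 15.8 and 0 RPM. This order rested on 0 to 18 reads per library, and all 4 leaf types overlapped. The log2 fold change Bo/Li was -2.27 (95% interval -4.58 to 0.05, adjusted p = 0.236 from limma). The Bo/Li value was -1.16 without Bo3, -1.53 without Li1 and -3.19 without Bo2, and pseudocounts of 0.1 and 10 gave -3.39 and -1.10; it was called under none of these settings.

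For ptc-miR399d, 1 read was found in Li3 and 2 reads each in La3 and Ov3, and 0 in the other 9 libraries. ptc-miR399h had 1 read each in La3, Ov2 and Bo2, ptc-miR399b 1 each in La1 and La3, and ptc-miR399a 1 in La3. With 0 reads in a library, levels of up to 4.75 RPM (Ov1) to 15.0 RPM (Bo1) cannot be told from absence. La3, the fifth deepest library with 412500 reads, was the single library with reads of all 9 miRNAs.

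**Figure D3:**
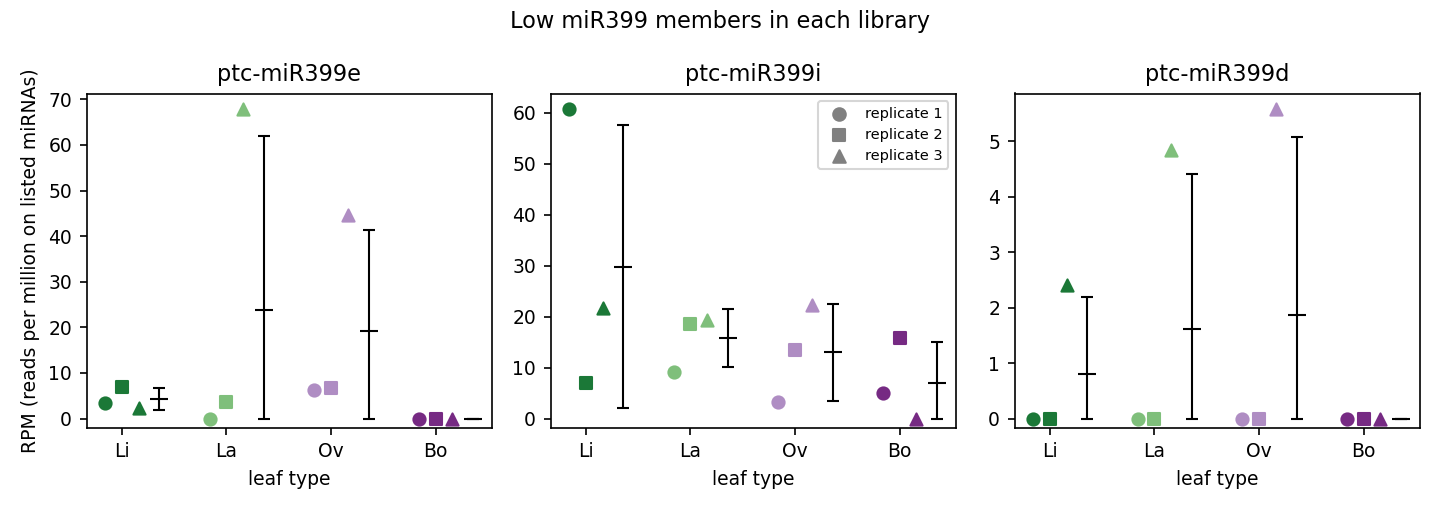
RPM of ptc-miR399e, ptc-miR399i and ptc-miR399d (vertical axes) in Li, La, Ov and Bo leaves (horizontal axes). Symbols are the 3 replicates, the dash with bars is the group mean ± SD (cut at 0). ptc-miR399e and ptc-miR399d are highest in replicate 3 of La and Ov, at 67.9 and 44.7 RPM and at 4.85 and 5.58 RPM, and both are at 0 in all Bo libraries.

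Summed over its 7 members, miR399 averaged 1323 ± 511 RPM in Li leaves, 355 ± 214 for La, 472 ± 196 for Ov and 898 ± 243 for Bo (SD, n = 3 each). The sum kept the order of ptc-miR399f, which made up 83.5% (La3; 95% Wilson interval 78.3% to 87.6%, counting error only) to 100% (Bo3; 98.2% to 100%) of miR399 reads. The next lowest shares were 87.6% in Ov3, 89.8% in La2 and 90.4% in Ov2. Without ptc-miR399f the other 6 members summed to 34.9 ± 26.1 RPM for Li, 44.4 ± 47.9 for La, 35.2 ± 33.1 for Ov and 7.99 ± 9.82 for Bo leaves (SD, n = 3 each). This remainder was lowest in Bo, but Bo2 (19.0 RPM) overlapped the other leaf types. For miR827 and miR2111 the family sum was that of the single listed member.

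The balance of ptc-miR827 and ptc-miR399f differed most among the La libraries. The ratio of ptc-miR827 to ptc-miR399f was 1.28, 1.34 and 1.89 in Li libraries and 9.46, 3.42 and 1.13 in La libraries. It was 1.95, 3.17 and 1.20 in Ov libraries and 2.39, 2.49 and 1.30 in Bo libraries. La1 stood alone at the top, with ptc-miR827 at 2193 RPM and ptc-miR399f at 232 RPM, and ptc-miR827 was the higher of the pair in all 12 libraries.

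Over the 12 libraries the log2 levels of ptc-miR399f and ptc-miR827 correlated with Pearson's r = 0.59 (permutation test, p = 0.0457, adjusted p = 0.137 over 3 relations). Spearman's rho was 0.75 (permutation p = 0.00682, adjusted p = 0.0205). Without Li3 and La2, the libraries farthest from the median of ptc-miR399f, r was 0.35, so the linear relation rested on those libraries. Taken as deviations from the group means r was 0.29, for which no p was computed. All permutations here ignored leaf type and replicate number, so their p-values do not separate a relation within leaf types from one between them. The correlation of ptc-miR2111a with ptc-miR399f was 0.07 (rho 0.21, permutation p = 0.822 and 0.516), and with ptc-miR827 it was 0.38 (rho 0.41, permutation p = 0.225 and 0.195). The adjusted permutation p of these 2 relations was 0.822 and 0.338 for r and 0.516 and 0.292 for rho. Without the 2 farthest libraries their r was 0.15 and 0.33. All points share their library total.

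**Figure D4:**
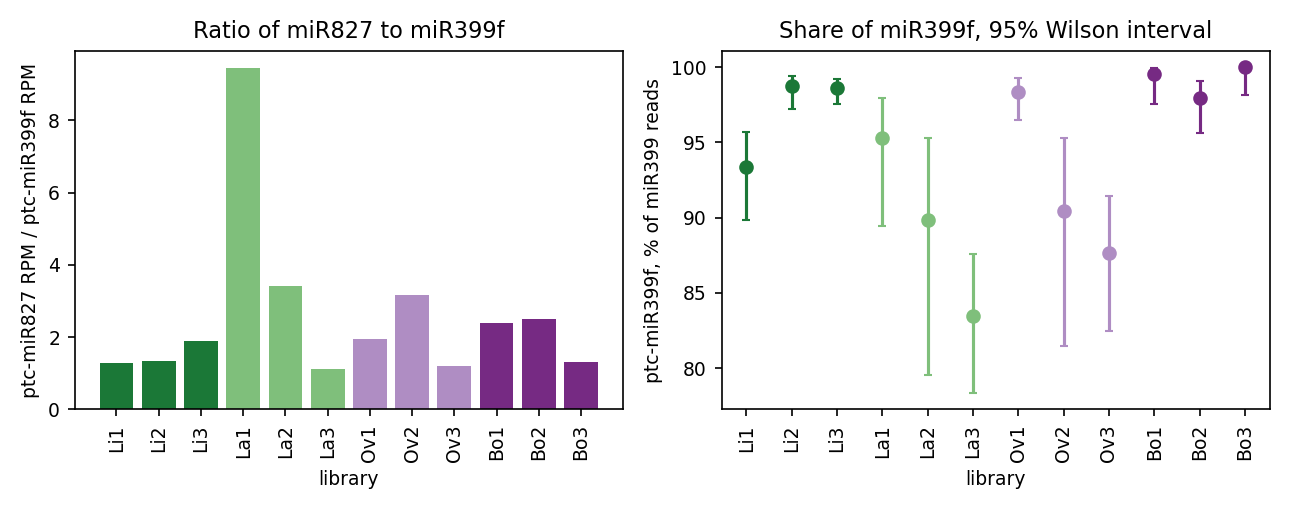
Left, ratio of ptc-miR827 to ptc-miR399f RPM (vertical axis, from 0) in each library (horizontal axis). Right, share of miR399 reads assigned to ptc-miR399f in percent (vertical axis, not from 0; points, with 95% Wilson intervals as bars) in each library; colours mark leaf types. The ratio is 9.46 in La1 and at most 3.42 elsewhere, and the share is lowest in La3, at 83.5%.

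La and Ov libraries with the same replicate number resembled each other in these miRNAs, most clearly those numbered 2 and 3. Over the 216 tested miRNAs, the deviations from the mean of the leaf type had correlations of 0.25, 0.52 and 0.50 between La and Ov libraries numbered 1, 2 and 3. ptc-miR399d, which reached the filter almost only through its 2 reads each in La3 and Ov3, was not counted in this likeness. Of the other 5 tested members, 5 deviated in the same direction in La2 and Ov2 and 5 in La3 and Ov3. In La1 and Ov1 this held for 3, with ptc-miR399f and ptc-miR2111a as the exceptions. The deviations of a miRNA cancel out within a leaf type, so these counts are not independent of each other. The share of same direction over all tested miRNAs was not counted. Same-numbered La and Ov libraries differed on average by 0.38 in log2(RPM + 1) of ptc-miR827, against 0.94 for La and Ov libraries of different number. For ptc-miR399f these mean differences were 0.50 and 0.91, and for ptc-miR2111a 0.50 and 0.75. For ptc-miR399e they were 1.39 and 3.13 and for ptc-miR399i 0.64 and 1.16. What the shared number stands for is not stated, and its part in the La and Ov values was not tested. With the number as a block, 0 members were called in Ov/La, as without it, and Ov/La log2 fold changes of ptc-miR399f, ptc-miR827 and ptc-miR2111a were 0.50, -0.26 and 0.02 (standard errors without the block 0.50, 0.60 and 0.47).

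**Figure D5:**
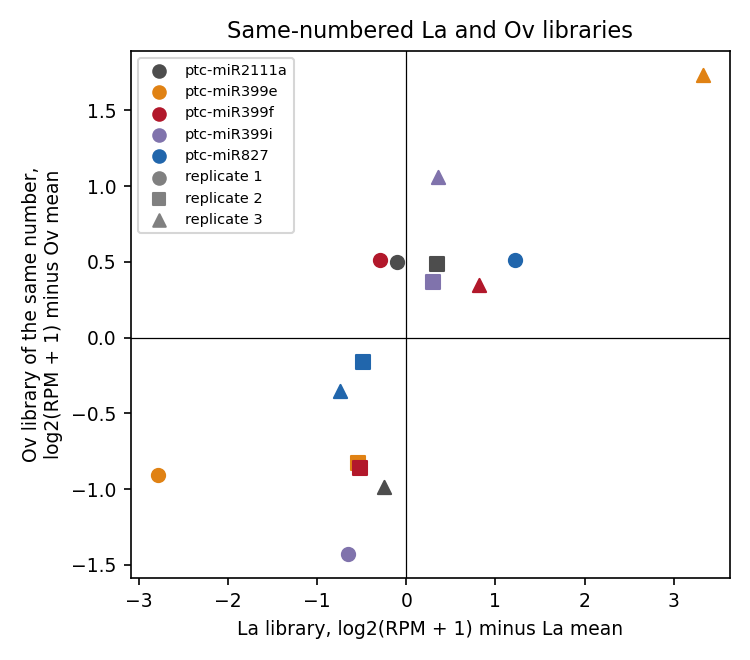
Deviation of log2(RPM + 1) from the group mean for 5 members (the tested ones except ptc-miR399d) in each La library (horizontal axis) and in the Ov library of the same number (vertical axis); colours are miRNAs and symbols replicate numbers. Of the 15 points, 13 have the same sign on both axes, and the farthest upper right is ptc-miR399e in libraries 3. Points of the same miRNA are not independent, because its deviations cancel out within a leaf type.

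The miRNAs most like ptc-miR827, the member with the highest mean, were ptc-miR6476a (r = 0.70 over 12 libraries) and the predicted star sequences NW_011499886.1_10127* (r = 0.69) and NW_011500067.1_22368* (r = 0.68). The first and the last were at few reads, with means of 8.86 and 5.33 RPM. For ptc-miR399f, a search added after its values were seen, the closest was ptc-miR390a, which triggers trans-acting small RNAs against auxin response factors (r = 0.88, rho 0.93). For ptc-miR2111a it was ptc-miR160a, a regulator of auxin response factors (r = 0.82, rho 0.82). These values describe the libraries, which share their totals.

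Other families linked to mineral nutrition were compared by counts in the same limma fit. Of all tested miRNAs, in either direction, 1.85% were called in La/Li, 4.17% in Ov/Li and 12.5% in Bo/Li. The shares were 0% in Ov/La, 3.7% in Bo/La and 2.78% in Bo/Ov. miR156, which also rises in phosphate-starved Arabidopsis, had 3 tested members, of which 0 were called in La/Li and in Ov/La. As lower, 1 was called in Ov/Li, 2 in Bo/Li, 2 in Bo/La and 2 in Bo/Ov, and 0 were called higher in any pair. The fourth listed member was not tested. Their median log2 fold change Bo/Li was -3.72, against 0.09 over all tested miRNAs. In the same pair ptc-miR2111a was at 0.80 and ptc-miR399f at -0.50, without a call. The paper proposes that miR156 affects leaf shape through the vegetative phase transition. Tree age differed between the leaf types, and a part of phosphate in the lower miR156 levels was not tested. The families that fall in phosphate-starved Arabidopsis, miR169, miR395 and miR398, had 18 tested members, of which 0 were called higher and 1, 1 and 3 lower in La/Li, Ov/Li and Bo/Li. Medians of the 18 were -0.75, -1.15 and -1.58 in these pairs, beside 0.08, 0.00 and 0.09 over all tested miRNAs. Most of the 18 were miR169 members, many at low RPM with an SD near or above the mean. Among 7 tested copper-linked miRNAs of miR397, miR398, miR408 and miR1444, ptc-miR408-3p was called higher in Ov/Li and Bo/Li, and 0 were called in La/Li. The log2 fold change of ptc-miR408-3p was nevertheless 2.42 in La/Li (adjusted p = 0.0755 from limma), against 2.46 in Ov/Li (adjusted p = 0.0492). ptc-miR399f, which was called in La/Li, lay as near the threshold (adjusted p = 0.0496). The miR398 rows stand in both of the last lists.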

How the data were processed

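Small RNA libraries of 12 leaf samples (Li, La, Ov and Bo, 3 replicates each, grouped by title) were analysed. The authors named known miRNAs by perfect match to miRBase (version 21), added predictions by miRDeep2, and deposited 1 RPM value (named TPM by them, with no length term) for each of 257 miRNAs in each sample. How multiply matching reads were treated was given in no source used here. Each column summed to the same total. Recovered reads served for depth, limits and intervals, which cover counting error only; a count model was not run, because each sample had 76 to 93 miRNAs with 1 to 20 reads, under the 100 required.

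For testing, a mean of 1 RPM or more was required, which left 216 miRNAs; these were compared with limma 3.58.1 (R 4.3.3) on log2(RPM + 1) with a variance trend, 2-sided, in one fit of 4 group means, for 6 pairs, with Benjamini-Hochberg adjustment. For low miRNAs the pseudocount shrinks the fold change. Exact tests and correlations (100000 permutations) used scipy 1.17.1 with numpy 2.4.6 and pandas 2.3.3 under Python 3.11.15, and figures matplotlib 3.10.9. The limma code was first tested on simulated data. Every member was named by its name alone, and the 3 miRNAs most like the most abundant member by r. Members and lists were chosen with earlier results of these data known. With 3 against 3 samples an exact test cannot go below 0.1, so none was used for pairs.

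All 66 pairs of libraries differed beyond sampling noise (chi-square over degrees of freedom 30.2 or more). Same-numbered samples deviated together only in La and Ov (0.25, 0.52 and 0.50), so the number pairs these on the evidence of the values. For number 1 this was weak, as the differently numbered Bo2 and Li1 reached 0.21. The study calls the replicates biological; whether each came from a separate tree is given in no source used here, and p-values measure the spread between these samples. Alternatives were other thresholds, pseudocounts, filters and scalings, no variance trend, fewer samples, a replicate block and each sample left out.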

Additional observations from a re-analysis of the deposited data

How the results depend on the processing

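The La/Li call of ptc-miR399f depended on the settings. The number of members called in La/Li was 0 in place of 1 with a pseudocount of 0.1 or 10, with the total taken without the most abundant miRNA, without the variance trend, with only the 6 samples of the pair, and with the replicate block on those 6 samples. Its log2 fold change was -2.10, -2.06, -2.03, -2.10, -2.10 and -2.10 under these settings. With each sample left out the number was 0 to 1. At an unadjusted P under 0.05, 1 member passed in Ov/Li, 2 in Bo/La and 2 in Bo/Ov, where 0 were called after adjustment. Of all tested miRNAs, 23.1%, 13% and 14.4% passed in these pairs. The replicate block with all samples called 1 member in Ov/Li (ptc-miR399f, -1.60, adjusted p = 0.0474), although the numbers pair only La and Ov, and with the 6 samples of Bo/Ov it called 1 (ptc-miR399e, adjusted p = 0.0238); it changed no call in Ov/La. With a sample left out, 0 to 1 members were called in Bo/La and in Bo/Ov. The share of all tested miRNAs called with the block, with the other settings or with a sample left out was not counted.

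Over the 4 leaf types, the limma F test across all tested miRNAs, added after seeing the data, gave ptc-miR399f an adjusted p of 0.0571 where the exact test gave 0.0177; 5.09% of tested miRNAs were called by this F test. With each sample left out the exact p was 0.00695 to 0.0376 for ptc-miR399f, 0.00766 to 0.247 for ptc-miR399e and 0.0303 to 0.53 for ptc-miR2111a.

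The log2 fold change of ptc-miR2111a was -0.048 for Ov/La with the total without the most abundant miRNA. With a sample left out it was -0.11 to 0.23 for La/Li, -0.14 to 0.60 for Ov/Li and -0.23 to 0.51 for Ov/La. For ptc-miR827 these ranges were -0.40 to 0.45 for Bo/Li and -0.63 to 0.35 for Ov/La. RLE scaling moved the median of all tested miRNAs by over 0.1 for Bo/Li (0.09 as deposited, -0.13 after), Bo/La (0.09, -0.05) and Bo/Ov (0.01, -0.16), and turned no sign of ptc-miR399f. The cause of these shifts was not tested. The planned count model was not run. ptc-miR399a, ptc-miR399b and ptc-miR399h, with 1 to 3 reads in all, were not tested.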

Other observations

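In La3 and Ov3, 18 of the 216 tested miRNAs were higher in both libraries than in any of the other 10, among them ptc-miR399e and also ptc-miR399d, which was tested almost only through its reads in these libraries. For the other 8 combinations of 1 La and 1 Ov library this count was 0 to 8, with 8 for La2 and Ov2 and 2 for La1 and Ov1. ptc-miR399e stood out most (the lower of La3 and Ov3 was 6.37 times the highest of the other libraries), followed by ptc-miR482d-3p, a regulator of disease resistance genes, at 4.53 times. ptc-miR482d-3p was at 914 RPM in La3 and 909.9 RPM in Ov3, and between 119 RPM (La2) and 201 RPM (Bo3) elsewhere. The value of ptc-miR399d (2.01 times) rested on 2 reads each in La3 and Ov3 against 1 read in Li3, and it is left out of this ranking. Next among the others of the 18 were ptc-miR482b-3p (1.78 times), NW_011500197.1_26944 (1.45), ptc-miR475a-3p (1.35), ptc-miR162a (1.30) and ptc-miR6424 (1.29). The rest were of several families, among them ptc-miR472b (1.19), ptc-miR169q (1.16), ptc-miR319a (1.09) and ptc-miR168a-5p (1.05), down to ptc-miR472a (1.01). This was noticed in the data and chosen after the values were seen.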
